A study of Mus musculus with 2 samples.

Results

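Early enterocyte-like cells of the mouse small-intestinal crypt were defined by raw UMIs (unique molecular identifiers, each standing for 1 captured transcript). A cell was included when it held fewer than 20 UMIs of Chga, at least 10 UMIs summed over Alpi, Gsdmc2, Gsdmc4, Car4 and Cdkn2b, and less than 0.05% of its UMIs from Apoa1, Apoa4 and Rbp2 together. The rule found 64 of the 2335 cells (2.74%). These 9 genes chose the cells, so their levels below are a description.

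The cells came from small-intestinal crypts of a ChgaCreER-tdTomato::Rosa26LSL-eYFP mouse, given 5 injections of 1 mg tamoxifen, 1 each day. Chga encodes chromogranin A, a granule protein of enteroendocrine cells, so the Cre recombinase acts in Chga-expressing cells, and the eYFP of the Rosa26 allele then marks those cells and their descendants. An eYFP-positive sort and a bulk epithelial sort were marked with hashtag antibodies and measured together in 1 gene expression library and 1 matching hashtag library, which share their barcodes by design. All groups below share this genotype and treatment, the sources used here give neither the age of the animal nor the hashtag that each sort received.

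The crypt holds dividing stem cells marked by Lgr5 at its base, and their descendants commit to an absorptive or a secretory fate as they move up. Absorptive cells pass through further divisions before they leave the cell cycle, build a brush border of microvilli, and on the villus take up and package dietary fat with apolipoproteins. The early cells were therefore set beside 468 Lgr5 cells and 130 lipid-handling cells. Lgr5 cells held at least 3 Lgr5 UMIs and fewer than 20 Chga UMIs, and met neither of the other definitions. Lipid-handling cells met the same 5-gene minimum and Chga limit as the early cells, with Apoa1, Apoa4 and Rbp2 at or above 0.05% of UMIs.

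The 64 early cells held 2657534 UMIs, against 13317207 in the Lgr5 cells and 4026329 in the lipid-handling cells. Early cells held 18050 to 91916 UMIs each, with a median of 36048.5, against medians of 23954.5 and 27282 in the Lgr5 and lipid-handling cells. The minimum of 10 UMIs is an absolute number, so it favours deeply sequenced cells. The median mitochondrial share was 7.62% in early cells, 7.58% in Lgr5 cells and 8.07% in lipid-handling cells. Levels are in CPM, which scales a gene's summed UMIs to 1000000 UMIs of its group, and intervals are exact 95% Poisson intervals, which cover counting error only. With 1 library there is no replicate, so no p-value was computed, and any 2 groups differ as sets of cells of this library only.

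The 5 genes of the rule contributed unequally. Gsdmc4, a gasdermin of the C family, gave 42.5% of the summed UMIs, Car4, a membrane-anchored carbonic anhydrase, gave 24.5%, and Gsdmc2 gave 14.8%. Cdkn2b, the cyclin-dependent kinase inhibitor p15, gave 12.3%, and Alpi, intestinal alkaline phosphatase of the brush border, gave 5.90%. Each cell held between 10 and 70 of these UMIs, with a median of 14.5. Gsdmc4 led, ties included, in 32 cells and Car4 in 15, and 11 cells held UMIs of all 5 genes. Gsdmc2 and Gsdmc4 are close paralogs whose reads can be shared, so their split is uncertain.

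**Figure D1:**
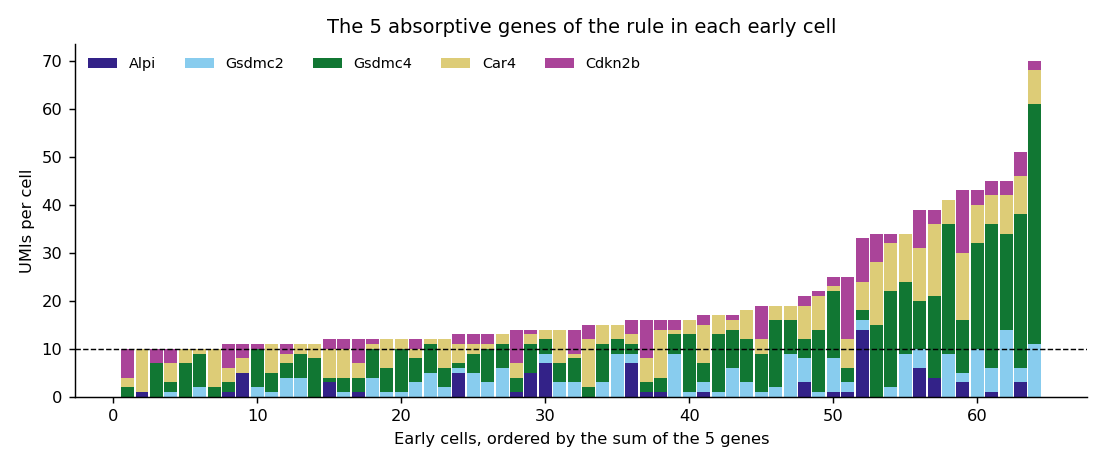
UMIs of Alpi, Gsdmc2, Gsdmc4, Car4 and Cdkn2b, stacked, in each of the 64 early cells, ordered by their sum. The dashed line marks the minimum of 10 UMIs, and the sums run from 10 to 70.

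Of the 3 genes that set the upper limit, Rbp2, a cellular retinol-binding protein of absorptive cells, gave 88.1% of the UMIs. Early cells held 0 to 41 UMIs of the 3 genes together, with a median of 6. No early cell held 3 or more Lgr5 UMIs. Of the 64 cells, 54 held 0, 7 held 1 and 3 held 2. Chga reached at most 4 UMIs and was at 0 in 39 cells.

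Cells near the limits were similar in part. The 14 cells with 10 or 11 UMIs of the 5 genes had 215 CPM of St3gal4, 580 of Olfm4 and 293 of Mki67. The 18 cells just below, with 8 or 9 UMIs, had 305, 692 and 372 CPM. The 9 early cells with 0.04 to 0.05% of Apoa1, Apoa4 and Rbp2 had 341 CPM of Fabp1, 679 of St3gal4 and 257 of Olfm4, and the 8 cells just above, at 0.05 to 0.06%, had 701, 486 and 56.5 CPM.

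The 5 absorptive genes of the rule and the given markers were looked up in RefSeq promoter windows of mouse build GRCm38.p6. Apoa1, Apoa4, Rbp2 and Chga were not looked up. The windows run from 250 bases before to 50 bases after a gene's start. Of 8 genes, 5 had a window. Each window was searched on both strands for the letters CAAAGTNCA, the core of a site for HNF4 factors, and TTTATNG, the core of a site for CDX factors. HNF4 and CDX factors regulate intestinal identity. CAAAGTNCA was present in 464 of 32851 windows (1.41%) and TTTATNG in 3584 (10.9%). The Alpi window held both, TTTATAG from position -33 and CAAAGTCCA from position -19, which do not overlap. The Car4 window held CTATAAA, the reverse-strand form of TTTATNG, from position 42. Both TTTATNG matches contain the letters TATA, as a TATA box does, so they cannot be assigned to either kind of site from their letters. The windows of Chp2, Cdkn2b and St3gal4 held neither. A match describes the letters and says nothing of binding. The Alpi and Car4 windows are printed because they belong to the rule and hold matches, and that of St3gal4 because its ratio to the Lgr5 cells was the highest. Each reads 5′ to 3′ on the strand of the gene, with matches in capitals. Alpi lies at chr1:87101557-87101856 on the minus strand, Car4 at chr11:84957504-84957803 on the plus strand, and St3gal4 at chr9:35116815-35117114 on the minus strand.
Alpi: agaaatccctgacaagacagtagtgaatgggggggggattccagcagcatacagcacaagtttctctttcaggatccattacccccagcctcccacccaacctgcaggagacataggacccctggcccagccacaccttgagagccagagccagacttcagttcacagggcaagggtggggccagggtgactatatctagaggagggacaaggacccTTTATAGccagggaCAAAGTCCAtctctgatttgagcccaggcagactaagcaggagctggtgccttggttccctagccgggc
Car4: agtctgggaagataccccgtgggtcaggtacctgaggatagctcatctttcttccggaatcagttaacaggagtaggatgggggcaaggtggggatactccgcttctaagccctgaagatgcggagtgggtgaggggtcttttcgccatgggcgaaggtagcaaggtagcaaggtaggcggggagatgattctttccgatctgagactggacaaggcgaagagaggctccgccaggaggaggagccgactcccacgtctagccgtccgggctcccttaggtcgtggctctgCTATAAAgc
St3gal4: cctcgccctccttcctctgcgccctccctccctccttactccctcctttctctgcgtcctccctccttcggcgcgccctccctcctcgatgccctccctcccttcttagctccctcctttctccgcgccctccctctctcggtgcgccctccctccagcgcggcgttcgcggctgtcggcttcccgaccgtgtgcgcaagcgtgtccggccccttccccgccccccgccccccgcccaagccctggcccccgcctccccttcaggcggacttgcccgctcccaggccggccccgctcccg

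Defining markers outside the rule were then described. The groups were chosen by Lgr5, the 5 absorptive genes, and Apoa1, Apoa4 and Rbp2, so genes that accompany these had to differ. The values below are therefore a description and no independent check of the label. Of 11 enterocyte genes outside the rule, summed per cell, early cells held 497 to 3972 CPM with a median of 1543, against medians of 680 CPM in Lgr5 cells and 5076 CPM in lipid-handling cells. The sum lay above the Lgr5 median in 60 of 64 early cells and above the lipid-handling median in 0. Early cells thus lay between the reference groups on this list. For 22 stem cell genes without Lgr5, early cells held 133 to 6906 CPM with a median of 767, against medians of 13380 in Lgr5 cells and 341 in lipid-handling cells. All 64 early cells lay below the Lgr5 median, and 19 lay below every Lgr5 cell.

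Markers of other cell types were low in most early cells. Stromal markers (Col1a1, Col1a2, Col3a1 and Dcn) were at 0 in all 64 cells, tuft cell markers at 0 in 57, and T cell markers at 0 in 58. B cell markers were at 0 in 46 cells, with a highest value of 823 CPM. Secretory transcripts formed an exception in 7 cells, of which 6 held at least 2000 CPM of goblet markers and 1 held at least 2000 CPM of enteroendocrine markers. The goblet sum reached 56820 CPM, and the enteroendocrine sum reached 16112 CPM in a cell with 1093 UMIs of Ghrl, which encodes ghrelin, and 811 of Cck, which encodes cholecystokinin. Scrublet, a doublet caller, marked 2 of 2335 cells by its own threshold (0.0857%) and has not worked here, so no cell was removed as a doublet. Of the 138 cells with the highest Scrublet scores (5.91%), 5 were early cells, and 1 of these was among the 7.

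The cells also went against a label. The labels name 1 mouse, but 1744 of the 2335 cells expressed Xist, which is transcribed from the inactive X chromosome of female cells, with at least 3 UMIs and no UMI of 4 Y-linked genes, and 252 held a Y-linked UMI and at most 2 Xist UMIs. Among early cells 39 were Xist cells, 21 were Y cells, 2 held both and 2 neither. Y cells were 32.8% of early cells, 5.13% of Lgr5 cells and 10.0% of lipid-handling cells. Both kinds of cell in 1 library go against the label of a single mouse, and the contrasts below also compare different mixtures of them. Counts for most gene lists named against Lgr5 cells are therefore also given within Xist cells and within Y cells. The exceptions are ribosomal protein genes, glycan and transmembrane mucin genes, and arginine and polyamine genes. Against lipid-handling cells this was done for the cell cycle and enterocyte lists.

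Against Lgr5 cells, early cells had higher levels of St3gal4, Chp2 and Arg2, of 6 of 17 lipid absorption genes and of 7 of 11 defence genes, and lower levels of stem cell and MHC class II genes. Paneth cell genes were lower over all cells, but 1 of 7 was lower once cells rich in Paneth transcripts were left out, and 0 within Y cells. Over all cells no listed cell cycle gene passed the limit used here, whereas some did within single hashtag pairs and within Xist or Y cells. Of 10205 genes with at least 50 UMIs over both groups, 267 (2.62%) were higher by at least 2-fold with intervals apart, and 223 (2.19%) were lower. The shares of tested genes higher and lower were 3.05% and 2.86% within Xist cells, and 2.99% and 2.10% within Y cells. They were 1.97% and 2.33% in tags 1 and 2, and 4.34% and 3.96% in tags 3 and 4. The ratio adds 10 CPM to both levels, which understates the change of low genes, and its median over all tested genes was -0.01 on the log2 scale. Higher and lower below mean past this limit. The groups were chosen by Lgr5 and the 5 genes, so these counts describe the contrast and support nothing.

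St3gal4, a sialyltransferase that caps glycans, had the highest ratio outside the rule. It was at 306 CPM (285 to 327) in early cells, 8.18 CPM in Lgr5 cells and 818 CPM in lipid-handling cells, and early cells held 0 to 67 UMIs each, with a median of 8. The log2 ratio to Lgr5 cells was 4.12. Chp2, a calcineurin-like cofactor of sodium-proton exchangers, was at 164 CPM (149 to 180) in early cells against 4.28 CPM in Lgr5 cells. Arg2, the mitochondrial arginase, was present in all 64 early cells with 1 to 47 UMIs and a median of 12. Its level was 308 CPM (287 to 330) against 17.6 CPM in Lgr5 cells and 721 CPM in lipid-handling cells. Beside St3gal4, the mucin Muc3 was the other higher member of 8 measured glycan and transmembrane mucin genes. Arg2 was 1 of 15 measured arginine and polyamine genes, and the other members did not pass the limit. The summed level of St3gal4, Chp2 and Arg2 lay above every Lgr5 cell in 52 of 64 early cells. In 84 B cells St3gal4 was at 7.62 CPM, but their 262597 UMIs are too few to set a background level for this gene.

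Shares of positive cells were compared after each cell was thinned to 5000 UMIs, which left out 6 Lgr5 cells. St3gal4 was then found in 38 of 64 early cells (59.4%, 95% Clopper-Pearson interval 46.4 to 71.5) and in 17 of 462 Lgr5 cells (3.68%, 2.16 to 5.83). Without thinning the shares were 85.9% and 18.4%, and 2 of 84 B cells (2.38%, median depth 2611.5 UMIs) held an UMI. Arg2 was found in 44 early cells (68.8%) and in 46 Lgr5 cells (9.96%) after thinning, and in 100% and 35.5% before. In unthinned B cells its share was 3.57%. The thinned shares of both genes kept the order of the CPM values.

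Genes of digestion and uptake were higher in part. Of 11 enterocyte markers, 5 were higher and 0 lower, with a median log2 ratio of 0.67. Within Xist cells 5 of 11 were higher, and within Y cells 4 of 9. Sis, the brush border enzyme sucrase-isomaltase, was at 109 CPM (96.6 to 122) in early cells, 3.45 CPM in Lgr5 cells and 837 CPM in lipid-handling cells, and 42 of 64 early cells held 1 or more of its UMIs. Fabp1, the liver-type fatty acid-binding protein, was at 220 CPM (203 to 239) against 17.9 CPM in Lgr5 cells and 3859 CPM in lipid-handling cells, with 0 to 48 UMIs and a median of 8. Fabp2, the intestinal form, was found in all 64 early cells, at 644 CPM against 204 and 2369 CPM. Vil1, an actin bundler of microvilli, was at 149, 124 and 323 CPM in early, Lgr5 and lipid-handling cells. Slc5a1, the sodium-glucose cotransporter, was at 66.6, 60.3 and 272 CPM. Vil1 and Slc5a1 did not pass the limit against Lgr5 cells, whereas both passed it, as lower, against lipid-handling cells.

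The same split appeared by function. Of 13 brush border structure genes, 0 were higher and 0 lower than in Lgr5 cells, with a median of 0.28. Within Xist cells 1 of 13 was higher, and within Y cells 1 of 11 was lower. Of 8 measured brush border hydrolases, Sis and Enpep, glutamyl aminopeptidase, were higher, the latter at 36.5 CPM against 1.5 CPM. Hydrolases were higher for 3 of 8 members within Xist cells and 1 of 3 within Y cells. Of 9 measured nutrient transporters, 4 were higher: the amino acid carriers Slc7a9, Slc7a8 and Slc1a1, and the iron exporter Slc40a1. Slc7a9 was at 35.8 CPM against 6.46 CPM, and Slc40a1 at 16.2 CPM against 1.65 CPM. Within Xist cells 3 of 8 transporters were higher, and within Y cells 0 of 2. Of 17 lipid absorption genes, 6 were higher, as were 6 of 17 within Xist cells and 3 of 8 within Y cells. Beside Fabp1 and Fabp2 these were Mttp, which loads lipid onto apolipoprotein B, at 146 against 36.5 CPM, the triglyceride synthesis enzymes Dgat1, at 158 against 61.2 CPM, and Mogat2, at 30.9 against 3.30 CPM, and the sterol carrier Npc1l1, at 29.7 against 2.55 CPM. Apob itself was at 70.0 CPM in early cells, 86.7 CPM in Lgr5 cells and 258 CPM in lipid-handling cells. All 64 early cells lay above the Lgr5 median of the summed lipid absorption list, and 38 lay above every Lgr5 cell.

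Other leading genes included Rbp7, a retinol-binding protein, at 151 CPM (136 to 166) against 6.68 CPM. Rbp7 was at 95.4 CPM in lipid-handling cells, below its level in early cells, whereas St3gal4 was higher in lipid-handling than in early cells. Apol10a, of the apolipoprotein L family, was at 87.7 against 1.73 CPM, Anxa2, a membrane-binding annexin, at 192 against 19.5 CPM, and Lgals3, the lectin galectin-3, at 83.5 against 3.83 CPM. Of 8 measured keratin and surface genes, 5 were higher and 1, Krt23, was lower. Within Xist cells 5 of 8 were higher and 1 lower, and within Y cells 3 of 6 were higher. Krt19, a keratin of simple epithelia, was found in all 64 early cells with 20 to 279 UMIs and a median of 77, at 2033 CPM (1979 to 2088) against 658 CPM in Lgr5 cells and 2957 CPM in lipid-handling cells. Krt20, a keratin of differentiated epithelium, was at 35.8, 2.03 and 229 CPM. Keratin transcripts thus differed from the Lgr5 cells in the same direction for Krt8, Krt19 and Krt20.

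**Figure D2:**
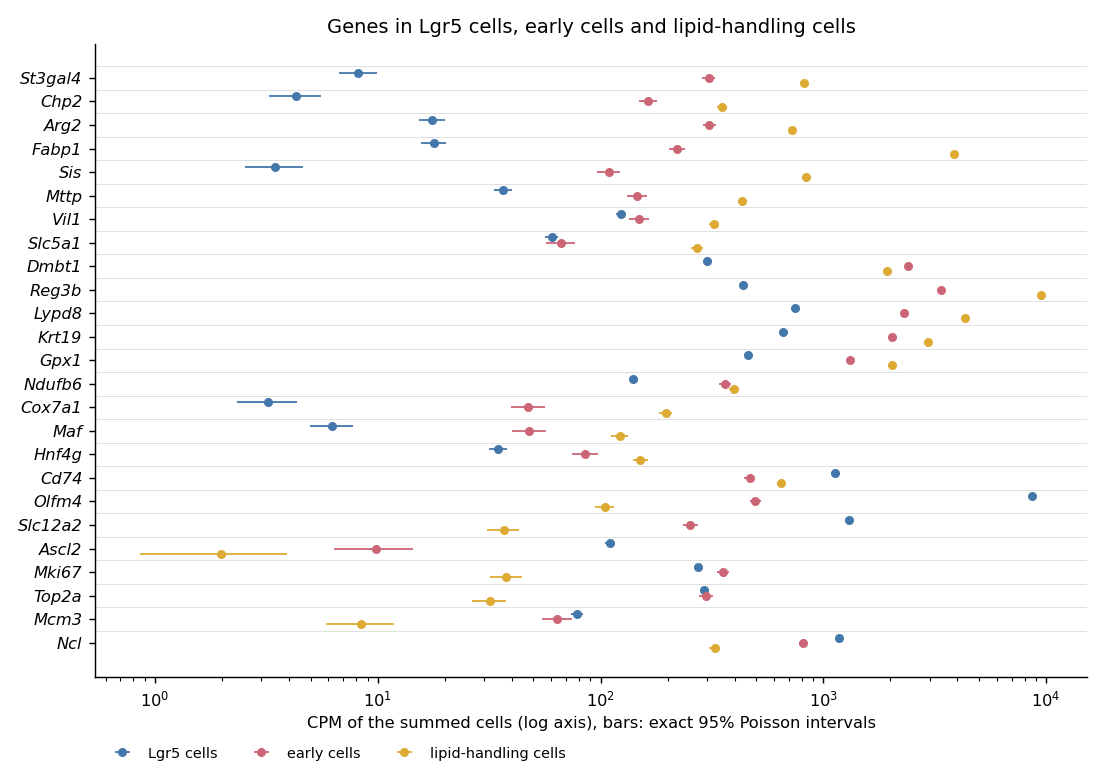
CPM on a log axis of 25 genes in early, Lgr5 and lipid-handling cells, with exact 95% Poisson intervals as bars. St3gal4 lies at 8.18, 306 and 818 CPM in Lgr5, early and lipid-handling cells, and Olfm4 runs the other way, at 8610.4, 496 and 105 CPM.

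Defence genes were spread unevenly over the early cells. Of 11 measured mucosal defence genes, 7 were higher than in Lgr5 cells and 0 lower, with a median of 1.14. Within Xist cells 7 of 10 were higher, and within Y cells 3 of 5. Dmbt1, a secreted scavenger receptor protein of the mucosa outside that list, was found in all 64 early cells, with 15 to 303 UMIs and a median of 80. Its level was 2407 CPM (2348 to 2466) in early cells, 300.1 CPM in Lgr5 cells and 1938 CPM in lipid-handling cells. Lypd8, a protein that keeps flagellated bacteria from the epithelium, was at 2309, 748 and 4339.7 CPM. Reg3b, an antimicrobial lectin, was at 3361 CPM in early cells against 435 CPM in Lgr5 cells, but its UMIs ran from 0 to 2279 with a median of 3. The 5 highest cells held 65.7% of these UMIs, and 17 early cells reached 1000 CPM. Reg3g, a close paralog, was at 2158 against 341 CPM. The Dmbt1 difference was present across cells, whereas that of Reg3b lay in a minority of them. Reads of Reg3b and Reg3g may be shared in part.

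Genes of energy metabolism and redox defence were mostly above the Lgr5 level by less than 2-fold. Of 90 measured nuclear oxidative phosphorylation genes, 11 were higher and 0 lower, with a median of 0.72. Summed per cell, this list lay at 38826 to 79051 CPM in early cells with a median of 57728, above every Lgr5 cell in 50 of 64. The number of higher members was 17 without the 7 cells with secretory transcripts, 16 of 90 within Xist cells, 1 of 82 within Y cells, and 7, with 1 lower, when mitochondrial and ribosomal genes were left out of the total. Ndufb6, a subunit of complex I, was found in all 64 early cells, at 363 CPM against 140 CPM. Cox7a1, a tissue-restricted subunit of complex IV, was at 47.4 CPM (39.5 to 56.5) against 3.23 CPM. Gpx1, a glutathione peroxidase, was at 1323 CPM (1279 to 1367) against 460 CPM, and of 10 glutathione genes 4 were higher and 0 lower. Glutathione genes were higher for 5 of 10 members within Xist cells and 1 of 7 within Y cells. Ribosomal protein genes moved the other way within the limit, with a median of -0.26 over 85 genes and 0 called.

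Transcription factors of the absorptive lineage mostly lay within the limit. Of 21 measured, 3 were higher, as were 3 of 21 within Xist cells and 1 of 14 within Y cells. Hnf4g, a nuclear receptor of enterocytes, was at 85.0 CPM (74.3 to 96.9) against 34.8 CPM in Lgr5 cells and 151 CPM in lipid-handling cells. Maf, a leucine zipper factor, was at 47.8, 6.23 and 122 CPM, and Nr1h4, the bile acid receptor, at 36.5, 11.5 and 40.7 CPM. Hnf4a, the paralog of Hnf4g, was at 181, 168 and 120 CPM, and did not pass the limit. Creb3l3, a lipid-responsive factor, was at 12.8, 3.68 and 185 CPM, so its level in early cells was nearer to that of the Lgr5 cells.

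Stem cell genes were lower. Of 22 measured genes, 17 were lower and 0 higher, with a median of -1.78. Within Xist cells 18 of 22 were lower, and within Y cells 8 of 15. Olfm4, a secreted glycoprotein of crypt base cells, was at 496 CPM (469 to 523) in early cells, 8610.4 CPM in Lgr5 cells and 105 CPM in lipid-handling cells. Early cells held 0 to 154 Olfm4 UMIs with a median of 5, and 9 of them reached 1000 CPM, as did 466 of 468 Lgr5 cells. B cells, which should lack Olfm4, held 522 CPM at their median depth of 2611.5 UMIs, with 0 to 6 UMIs per cell, and an Olfm4 UMI was found in 71.4% of them and in 90.6% of early cells. B cells were far shallower than early cells, and their level lay above that of lipid-handling cells, so they give no common background. The part of free RNA in the Olfm4 level of early cells was not tested. Slc12a2, the basolateral sodium-potassium-chloride cotransporter, was at 253, 1298 and 36.8 CPM, and at 83.8 CPM in B cells. Ascl2, a transcription factor of stem cells, was at 9.78, 110 and 1.99 CPM, and Gkn3 at 13.2, 231 and 2.24 CPM.

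Of 7 MHC class II genes, 5 were lower than in Lgr5 cells, with a median of -1.25. Cd74, the invariant chain, was at 466 CPM (441 to 493) in early cells, 1125 CPM in Lgr5 cells and 642 CPM in lipid-handling cells, and H2-Ab1 was at 93.3, 284 and 126 CPM. Within Y cells 3 of 5 measured members were lower, and within Xist cells 5 of 7. B cells carry Cd74 at 13290.3 CPM.

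Paneth cell genes, which encode antimicrobial peptides of the crypt base, were lower for 6 of 7 members, with a median of -4.25. The Lgr5 cells with most Paneth transcripts set this value: 5 cells held 67.6% of the Lyz1 UMIs of that group. Without cells rich in Paneth transcripts the median was -0.33 and 1 member was lower, and within Y cells it was 0.91, with 2 of 5 members higher and 0 lower. Within Xist cells 7 of 7 were lower. The highest Paneth sums in Y early cells, at 6247, 5539 and 2445 CPM, lay in cells with 56820, 25970 and 7835 CPM of goblet markers. The part of these cells in the Y value was not tested. Goblet genes were higher for 5 of 7 members with a median of 1.76. Within Xist cells 3 of 7 were higher and 1 lower, and within Y cells 7 of 7 were higher. Without the 7 early cells with secretory transcripts 0 were higher and 5 lower, with a median of -1.54. Clca1, a secreted goblet cell protein, was at 186 against 3.38 CPM over all early cells. The goblet count therefore rests on those 7 cells.

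Over all cells, no listed cell cycle gene passed the limit against Lgr5 cells. Of 16 G1/S genes 0 were called, with a median of -0.29, and of 16 G2/M genes 0 were called, with a median of 0.36. The 2 lists lay further apart in tags 3 and 4, the hashtag pair that holds 12 early cells, where 5 of 14 G1/S genes were lower (median -0.83) and 4 of 16 G2/M genes were higher (median 0.80). In tags 1 and 2, 2 of 15 G1/S genes were higher (median 0.24) and 0 of 16 G2/M genes were called. Within Xist cells 1 of 16 G1/S genes was lower and 1 of 16 G2/M genes was higher, and within Y cells 0 of 13 G1/S genes were called and 1 of 14 G2/M genes was lower. Whether these sets differ from each other was not tested. Single members called are to be read against the shares of all tested genes in the same set, given above. Mki67, the proliferation antigen Ki-67, was at 355 CPM (333 to 378) in early cells and 273 CPM in Lgr5 cells. Early cells held 0 to 65 Mki67 UMIs, with a median of 7. Thinned to 5000 UMIs, it was found in 33 of 64 early cells (51.6%, 38.7 to 64.2) and in 210 of 462 Lgr5 cells (45.5%, 40.8 to 50.1). Without thinning these shares were 78.1% and 68.6%. B cells held Mki67 at 206 CPM and it was found in 21.4% of them, so they give no level without expression for this gene. Top2a, the topoisomerase of dividing cells, was at 297 and 291 CPM.

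Against lipid-handling cells, early cells had higher levels of cell cycle, ribosome assembly and some stem cell genes, and lower levels of brush border, lipid and detoxification genes. Of 8173 tested genes, 325 (3.98%) were higher and 243 (2.97%) were lower. These shares were 3.78% and 3.27% within Xist cells, and 2.94% and 1.76% within Y cells. The median log2 ratio over all tested genes was 0.10, and list medians below are to be read against it. Both groups met the 5-gene minimum and were separated by Apoa1, Apoa4 and Rbp2, so genes that accompany these 3 had to differ. The early cells enter both contrasts, which therefore share samples.

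All 16 G2/M genes were higher in early cells, with a median of 2.04. Mki67 was at 355 CPM against 37.8 CPM (log2 ratio 2.93), and Top2a at 297 against 31.8 CPM. Of 14 G1/S genes, 9 were higher. Mcm3, a subunit of the replicative helicase, was at 64.0 CPM (54.7 to 74.3) against 8.44 CPM. The G2/M count was 16 of 16 within Xist cells and without the 7 cells with secretory transcripts. Within Y cells, with 13 lipid-handling cells, 2 of 13 measured members were higher and the median was 0.07, whereas 10 of 10 G1/S genes were higher there. Whether the Xist and Y values differ from each other was not tested.

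Of 10 ribosome biogenesis genes, 5 were higher. Ncl, nucleolin, was at 814 CPM in early cells, 325 CPM in lipid-handling cells and 1170.1 CPM in Lgr5 cells. Of 13 measured stem cell genes, 6 were higher: Olfm4, Slc12a2, Smoc2, Axin2, Ephb2 and Myc. Slc12a2 had a log2 ratio of 2.49. Axin2, a Wnt target, was at 38.0, 8.69 and 205 CPM in early, lipid-handling and Lgr5 cells. Ghrl, Cck, Ang4 and Spink4 were also among the highest ratios, and 92.4 to 98.0% of their UMIs in early cells lay in 5 cells. Their ratios were below 0 without the 7 cells.

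Enterocyte genes were lower for 10 of 11 members, with a median of -1.86. This count was 10 of 11 within Xist cells and 5 of 11 within Y cells. Fabp1 was at 220 CPM against 3859 CPM (log2 ratio -4.07), and Sis at 109 against 837 CPM (-2.83). Brush border hydrolases were lower for 10 of 13 members, structure genes for 7 of 13, nutrient transporters for 8 of 15 and lipid absorption genes for 13 of 18. Anpep, aminopeptidase N, was at 67.4 against 403 CPM. Lct, lactase, had 0 UMIs in early cells, and 3 UMIs would be 1.13 CPM, against 25.1 CPM in lipid-handling cells. At that set floor of 3 UMIs lactase would be 22.2-fold lower over the group, which is not a bound from an interval. Slc2a2, the basolateral glucose carrier, was at 1.13 against 47.7 CPM, and Slc15a1, the peptide carrier, at 0.376 against 18.4 CPM. Digestive genes that were higher in early than in Lgr5 cells, such as Sis, and ones that were not, such as Anpep and Slc5a1, were both lower than in lipid-handling cells.

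Gsta1, a glutathione transferase, was at 46.3 against 614 CPM, and 5 of 10 glutathione genes were lower. Of 10 defence genes 5 were lower, among them Reg1 at 196 against 2342 CPM. Aldh1a1, a retinaldehyde dehydrogenase, was at 11.3 against 181 CPM, and Spink1, a trypsin inhibitor, at 17.3 against 262 CPM. Gip, which encodes an incretin hormone, had the lowest ratio, but 97.6% of its UMIs in lipid-handling cells lay in 5 cells. Oxidative phosphorylation genes were called for 1 of 89, with a median of -0.17, nearer to 0 than the 0.72 against Lgr5 cells. St3gal4, Chp2 and Arg2 were lower in early cells, with log2 ratios of -1.39, -1.06 and -1.20.

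The 194 cells with at least 10 UMIs of the 5 genes were laid out in 4 bands of their Apoa1, Apoa4 and Rbp2 share. The bands below 0.01% (19 cells) and from 0.01 to 0.05% (45 cells) are early cells, and those from 0.05 to 0.5% (102 cells) and above (28 cells) are lipid-handling cells. Median depth was 56077 UMIs in the lowest band and 32927 in the next, so the lowest band held the deepest cells. Levels followed the share along which the cells were ordered. St3gal4 was at 129, 413, 769 and 998 CPM, Chp2 at 96.4, 205, 328 and 442 CPM, and Arg2 at 158, 400, 650 and 979 CPM over the 4 bands. Sis was at 18.9, 163, 499 and 2070.3 CPM, and Fabp1 at 121, 280, 1508 and 12450 CPM. Vil1 was at 111, 172, 271 and 514 CPM. Olfm4 ran the other way, at 691, 377, 110 and 83.2 CPM, as did Slc12a2, at 380, 176, 43.0 and 13.9 CPM.

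Cell cycle transcripts were high in both bands of early cells and low in both bands of lipid-handling cells. The summed G2/M list was at 3341, 2893, 623 and 105 CPM, and Mki67 at 421, 314, 46.8 and 4.62 CPM. The stem list was at 1794, 1072, 459 and 261 CPM, and the ribosome biogenesis list at 3272, 2341, 1394 and 591 CPM. Some genes were highest in the middle. Dmbt1 was at 2292, 2477, 2283 and 679 CPM, Gsdmc4 at 150, 236, 244 and 65.9 CPM, and Krt19 at 1382, 2429, 3211 and 2028 CPM. The lowest CPM of Dmbt1 and of Gsdmc4 lay in the band with most lipid-handling transcripts. Oxidative phosphorylation genes were at 51577, 59405, 65166 and 66163 CPM.

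**Figure D3:**
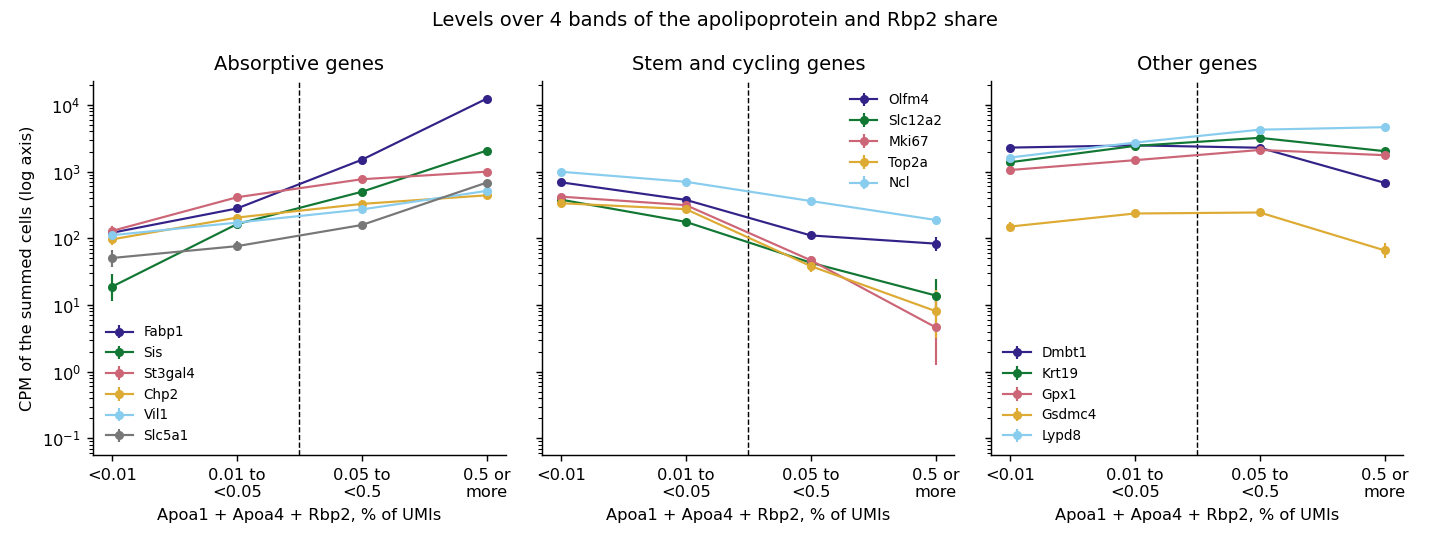
CPM on a log axis over 4 bands of the Apoa1, Apoa4 and Rbp2 share, with the dashed line at the 0.05% limit. Absorptive genes are higher to the right, Olfm4, Slc12a2 and Mki67 are lower, and Dmbt1 and Gsdmc4 are lowest in the last band.

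Early cells differed among themselves in cell cycle transcripts. The summed G2/M list ran from 83.4 to 10181 CPM with a median of 1761, and 30 of 64 cells reached 2000 CPM, against 32.1% of Lgr5 cells and 3.85% of lipid-handling cells. Of these 30 cells, 27 lay above the Lgr5 median of the enterocyte list, and all 30 lay below the Lgr5 median of the stem list. Of the other 34, 33 lay above that enterocyte median. The 30 cells had a median of 40043.5 UMIs against 31754.5 in the other early cells, and 4 of them were among the highest Scrublet scores. The part of doublets in this was not tested. Early cells with many G2/M transcripts thus carried enterocyte transcripts in the same barcode. The rule admitted only cells with absorptive transcripts, and all 64 early cells lay below that stem median, so this is a description.

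**Figure D4:**
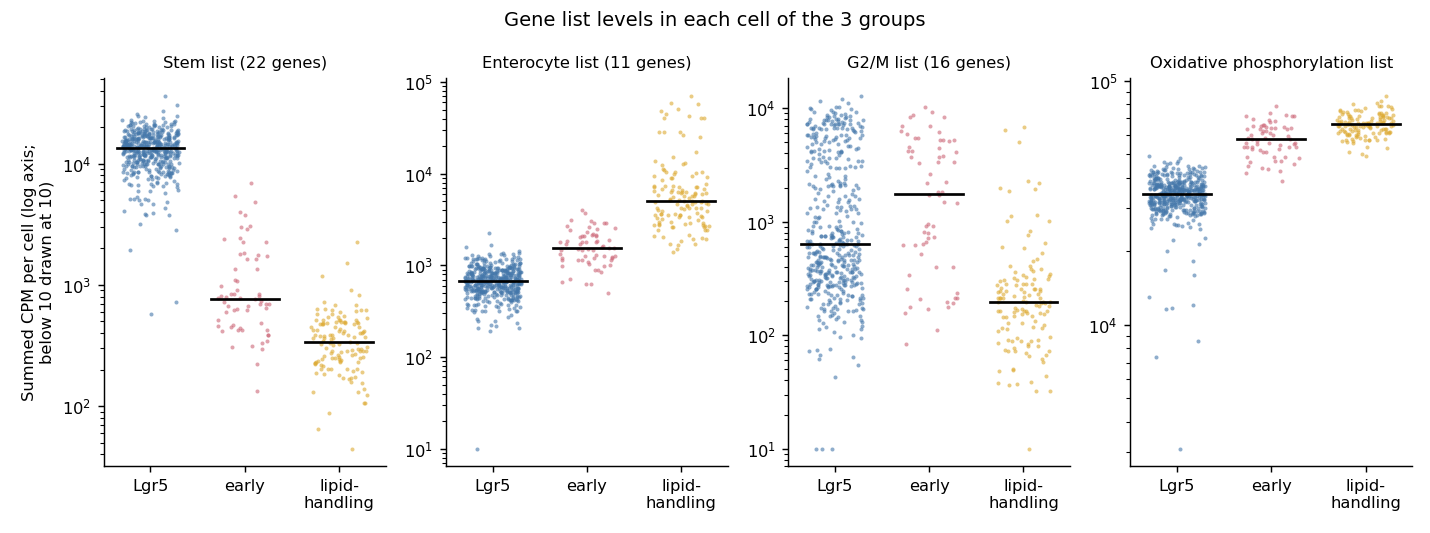
Summed CPM per cell, on a log axis, of stem, enterocyte, G2/M and oxidative phosphorylation genes in Lgr5, early and lipid-handling cells, with values under 10 drawn at 10 and the median as a black line. Early cells lie between the other groups for enterocyte genes, with medians of 680, 1543 and 5076 CPM, and spread over the whole range for G2/M genes.

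Split at the median of the summed G1/S and G2/M lists, the 32 cells above it had 218 CPM of St3gal4 (194 to 243), 171 of Fabp1 and 365 of Olfm4. The 32 cells below it had 415 CPM of St3gal4 (379 to 454), 282 of Fabp1 and 658 of Olfm4. Summed over its cells, the lower set thus had more of these absorptive transcripts per UMI, and its stem list was at 1529 against 1198 CPM. The 5 cells with most Olfm4 UMIs, all in the lower set, held 45.2% of the Olfm4 UMIs of early cells. The stem difference therefore describes the sums, and whether it holds for most cells was not tested. Split at the median of the stem list, the 32 cells above it had 121 CPM of St3gal4, 139 of Fabp1 and 794 of Olfm4, and the 32 below had 558, 331 and 88.05 CPM. The enterocyte list was at 1277 CPM above and 2143 CPM below the stem median, and oxidative phosphorylation at 51387 and 63333 CPM. The G2/M list was at 3224 and 2842 CPM, a smaller difference. These splits use values of the same cells and are a description.

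Several genes had levels in Xist and Y early cells whose intervals lay apart. St3gal4 was present in 39 of 39 Xist cells, with 2 to 67 UMIs and a median of 14, and in 13 of 21 Y cells, with 0 to 8 UMIs and a median of 1. The levels were 422 CPM (391 to 455) and 43.5 CPM (30.9 to 59.4). Within tags 1 and 2, which hold 10 Xist and 20 Y early cells, they were 323 and 40.1 CPM. Lipid-handling cells showed the same order, at 908 CPM in Xist and 90.8 CPM in Y cells. In Lgr5 cells St3gal4 was at 8.61 CPM (7.03 to 10.4) in Xist and 2.51 CPM (0.303 to 9.05) in Y cells. Median depth was similar, at 35753 UMIs in Xist and 37782 in Y early cells. The Xist level of St3gal4 was thus the higher of the pair in both groups and inside a tag pair.

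Reg3b was at 4836 CPM in Xist and 537 CPM in Y early cells, and reached 1000 CPM in 15 of 39 and 1 of 21 cells. It was at 4230.1 and 552 CPM within tags 1 and 2, 462 and 30.1 CPM in Lgr5 cells, and 10472 and 789.7 CPM in lipid-handling cells. Gsdmc4 ran the other way, at 135 CPM (118 to 155) in Xist and 310 CPM (274 to 349) in Y early cells, and at 149 and 674 CPM in lipid-handling cells. Gsdmc2 and Gsdmc4 together held more UMIs than Alpi, Car4 and Cdkn2b together in 19 of 21 Y cells and in 12 of 39 Xist cells. Hspa1a, an inducible heat shock chaperone, was at 59.3 and 194 CPM in early cells, 32.4 and 143 CPM in Lgr5 cells and 41.2 and 220 CPM in lipid-handling cells. Arg2, at 371 and 179 CPM, and Dmbt1, at 2844 and 1585 CPM, differed less. Mki67 was at 398 and 339 CPM. Animal, sex and sort cannot be told apart here.

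**Figure D5:**
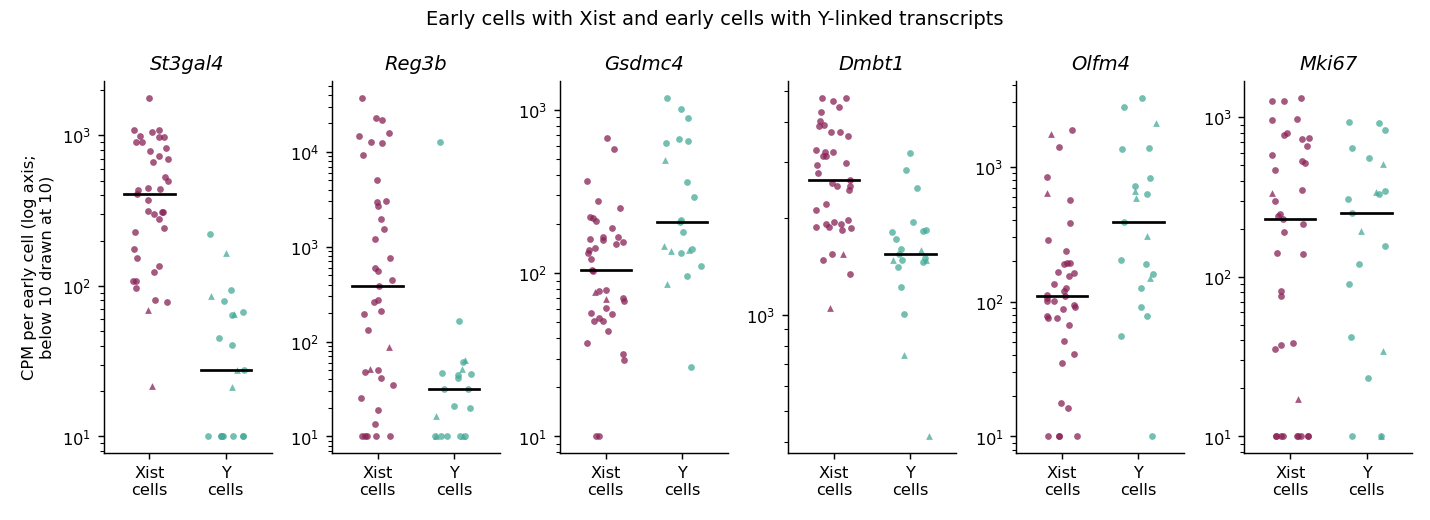
CPM per early cell, on a log axis, of St3gal4, Reg3b, Gsdmc4, Dmbt1, Olfm4 and Mki67 in 39 Xist and 21 Y cells, with the median as a black line and triangles for cells with goblet or enteroendocrine transcripts. St3gal4 medians are 406 and 27.8 CPM, and Gsdmc4 medians are 105 and 207 CPM.

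Early cells made up 39 of 1744 Xist cells (2.24%, 1.59 to 3.04) and 21 of 252 Y cells (8.33%, 5.23 to 12.5). The intervals lie apart but cover counting error only. Gsdmc4 gave the largest part of the UMIs by which the rule admitted cells, and was higher in Y than in Xist early cells. The shares therefore describe the outcome of the rule. The parts of Gsdmc4 and of depth in their difference were not tested. Of the 21 Y early cells, 20 belonged to tags 1 and 2 and 0 to tags 3 and 4, and of the 39 Xist early cells 10 and 11 did, with 18 unassigned.

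The hashtag pairs held early cells in shares whose intervals overlapped. A cell was assigned to tags 1 and 2 or to tags 3 and 4 when its counts for that pair exceeded the other pair's 3-fold or more. Early cells were 31 of 987 cells of tags 1 and 2 (3.14%, 2.14 to 4.43) and 12 of 411 cells of tags 3 and 4 (2.92%, 1.52 to 5.04), and 21 were unassigned. With a 10-fold limit, 1 of 120 cells of tags 3 and 4 (0.833%) was an early cell. YFP transcripts at 3 or more UMIs were found in 12 of 64 early cells (18.8%, 10.1 to 30.5), in 10.9% of Lgr5 cells and in 10.8% of lipid-handling cells. Of the 12 cells, 11 were among the 31 of tags 1 and 2, 1 among the 12 of tags 3 and 4 and 0 among the 21 unassigned. tdTomato, the transcript linked to Chga, reached 3 UMIs in 2 early cells. YFP was at 91.1 CPM (79.9 to 103) in early cells, 40.2 CPM in Lgr5 cells and 63.6 CPM in lipid-handling cells, and in tags 1 and 2 its early cells held 181 CPM. Of 242 YFP UMIs in early cells, 236 lay in that pair. The pair held 31 of 64 early cells, 139 of 468 Lgr5 cells and 38 of 130 lipid-handling cells. The YFP levels of the groups therefore also compare different mixtures of hashtag pairs.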

How the data were processed

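Sorted crypt cells were measured with droplet-based 3-prime chemistry (10x Genomics), per the labels' protocols. The submitters' processing notes name Cell Ranger and Seurat without versions, and the human build GRCh38, although gene identifiers are mouse Ensembl identifiers. Software version 3.1.0 stands in the matrix header. The authors deposited raw counts of UMIs, not normalized, for 31055 genes over 11248 barcodes, and a count table of 2335 of them, whose entries differed from the matrix in 0 cases. The sources used here do not give the filter that kept 2335 barcodes.

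From these counts, UMIs were summed per group of cells over 51238250 UMIs. Genes with at least 50 UMIs over both groups were tested, with 10 CPM added to each level. A gene was higher or lower past a 2-fold ratio with exact 95% Poisson intervals apart. The cells and gene lists were chosen with earlier results of these data known. Named genes were the 15 highest and 15 lowest ratios per contrast among genes detected in 20% or more of the higher group's cells, without mitochondrial genes, unnamed models, transgenes, Xist, Y-linked genes and the rule's genes, and at most 3 per near-identical family, plus the rule's genes, the given markers and leading members of each list. Dmbt1 and Rbp7 came from the ratios, and Hspa1a and further list members past the limit were picked after their values were seen. For shares, cells were thinned to 5000 UMIs. B cells held at least 3 UMIs of Cd79a, Cd79b and Ms4a1. Cells rich in Paneth transcripts held at least 5000 CPM of the list.

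On simulated counts, the early against Lgr5 contrast called 75 of 100 genes changed 2.5-fold, 100 of 100 changed 4-fold and 0 of 10016 unchanged genes. The contrast with lipid-handling cells called 61, 100 and 0 of 7967. The simulated counts held counting error only, with no variation among cells, and the changed genes were drawn from the more abundant ones. They check the calculation and give no error rate for the real cells. Alternatives changed the added CPM, gene filters, totals, cell limits and the cells included. Python 3.11.15, numpy 2.4.6, scipy 1.17.1, pandas 2.3.3, scanpy 1.11.5 (Scrublet) and matplotlib 3.10.9 were used.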

Additional observations from a re-analysis of the deposited data

Results flagged for a closer look

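Data outside the main measurement held further cells of this kind. Of the 8913 barcodes left out of the authors' count table, 17 met the rule for early cells. They held 4152 to 80763 UMIs with a median of 27307, and a median mitochondrial share of 13.3% against 7.62% in the 64 early cells. Of the 17, 6 lay at or below the highest mitochondrial share of the kept cells. Their levels were 252 CPM of St3gal4 (210 to 301), 365 CPM of Arg2, 127 CPM of Sis and 367 CPM of Mki67, against 306, 308, 109 and 355 CPM in the kept early cells. Olfm4 was at 996 against 496 CPM and Reg3b at 1104 against 3361 CPM. The goblet genes Agr2 and Tff3 were at 41.1 and 32.8 CPM, against 605 and 672 CPM in the kept early cells. Left-out barcodes entered no comparison.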

How the results depend on the processing

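No paired analysis was possible because 1 gene expression library holds all cells and no replicate exists. The number of early cells was 142 with a minimum of 5 UMIs of the 5 genes, 17 with 20, 32 with a limit of 0.02% for Apoa1, Apoa4 and Rbp2, and 98 with 0.1%. Against Lgr5 cells, 496 genes were higher and 713 lower with 1 CPM added, and 81 and 61 with 50 CPM. Genes higher numbered 161 with the 0.02% limit, 161 in tags 1 and 2, and 134 within Y cells. Genes lower numbered 352 without mitochondrial and ribosomal genes in the total, 410 with a minimum of 20 UMIs and 94 within Y cells. Against lipid-handling cells, 694 were higher and 422 lower with 1 CPM added, and 68 and 91 with 50 CPM. Genes higher numbered 171 with at least 200 UMIs per gene, 135 with a minimum of 20 UMIs, 159 in tags 3 and 4, and 110 within Y cells. Genes lower numbered 375 with the 0.02% limit, 124 in tags 3 and 4, 66 within Y cells, and 399 against all cells above the 0.05% limit. The share of early cells in tags 3 and 4 was 0.833% with a 10-fold tag limit. Other settings left these counts within 1.5 times (32 of 42 against Lgr5 cells, 24 of 36 against lipid-handling cells). Smaller sets of cells test fewer genes; other causes were not tested.

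Secretory genes turned direction. The goblet median against Lgr5 cells was -1.58 with a minimum of 20 UMIs and -1.54 without the 7 cells with secretory transcripts, and against lipid-handling cells -2.66 and -2.25. Within Y cells the Paneth median was 0.91, Lyz1 0.91 and Itln1 1.27 against Lgr5 cells. Against lipid-handling cells, the minimum of 20 UMIs gave Ang4 -0.82, Cck -0.72 and Spink4 -0.99. Without the 7 cells Ghrl was at -0.023, Ang4 at -0.68, Cck at -0.54 and Spink4 at -0.93. Within Xist cells Ghrl was at -0.16 and Cck at -0.32, and Cck was at -2.40 against all cells above the 0.05% limit. The other named genes kept their direction in these settings. Without the 7 cells, 251 of 267 higher and 216 of 223 lower genes against Lgr5 cells were still called, and 278 of 325 and 216 of 243 against lipid-handling cells. Depth limits genes near 0 in the 64 cells, where 3 UMIs are 1.13 CPM.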
